A study of Mus musculus with 8 samples.

Results

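The genes described here are the neighbours of Il10 on mouse chromosome 1, in a run that starts with Cd55 on one side of Il10 and ends with Camsap2 on the other. They were listed as genes on either side of Il10, with Il10 itself and Ctse left out, and with earlier results of these data known. The list is not complete, as 47 other tested genes of the same interval were not on it. Of 60 listed genes, 55 were measured, out of 6986 genes tested in all. The other 5, Ren1, Etnk2, Zc3h11a, Adora1 and Arl8a, had no probe set of their own with that gene name and were not analysed here. On the Cd55 side lay 5 of the measured neighbours, and 50 lay on the side of Ctse.

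The measured cells were CD4+CD25+ lymphocytes, labelled Treg, that flow cytometry had sorted from para-aortic lymph nodes at day 9.5 of mouse pregnancy, and the platform was the Affymetrix Mouse Gene 2.0 ST array. The compared groups were 4 arrays from Il10-/- mice, back-crossed through a C57BL/6 (B6) colony, and 4 arrays from Il10+/+ mice of that C57BL/6 colony. Each array held a separate pool of RNA from 2 to 4 mice. The Il10-/- mice drank oxytetracycline at 2 mg/ml to prevent colitis, while the labels mention no antibiotic for Il10+/+ mice, so genotype and antibiotic cannot be told apart. The strain in which Il10 was disrupted, the allele and the number of back-crosses are not stated in the labels or the design text.

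A gene disrupted in embryonic stem cells of another strain is passed on together with the chromosome around it, and repeated back-crossing shortens that stretch without removing it at once. Neighbours of a disrupted gene can therefore differ between mutant and control mice in their own sequence. The arrays give a signal per probe set and no sequence, and the comparison along the chromosome asks whether those signals differed near Il10. Whether a sequence difference at a probe changed its signal was not tested. Around Il10 the neighbours include receptors for immunoglobulins and complement, the kinase that acts downstream of p38, regulators of the tumour suppressor p53, and many genes used mainly in muscle, neurons, cartilage or epithelium.

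The array medians of all tested genes lay between 6.97 and 7.12 on the log2 scale. On the first principal component 2 arrays stood apart, Il10-/- replicate 2 with a score of 16.6 and Il10+/+ replicate 4 with 17.8, against -13.3 to -2.72 in the remaining arrays. Of the T cell and Treg markers on a fixed list, 7 of 16 were measured, and all 7 lay above the 95th percentile of olfactory and vomeronasal receptor genes (a mean log2 value of 7.07 over 275 genes), which served as a reference for dim signal. They were Cd28, Ctla4, Icos, Ikzf2, Ikzf4, Ptprc and Themis, with differences (Il10-/- minus Il10+/+) from -0.19 for Ikzf2 to 0.21 for Themis, a median of -0.10 and 0 at an unadjusted p under 0.05 by limma. Foxp3, Il2ra, Cd4 and Cd3e were not analysed here.

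None of the 55 neighbours passed the test of the genotype difference. By limma with Benjamini-Hochberg adjustment over all 6986 genes, 0 of 55 had an adjusted p under 0.05, against 2 genes (0.0286%) of all those tested, and the smallest adjusted p among the neighbours was 0.524. At an unadjusted p under 0.05 there were 5 of 55, or 9.09%, against 4.78% of all tested genes. Of these, 1 lay higher in Il10-/- (1.82%, against 3.19% of all genes) and 4 lay lower (7.27%, against 1.59%). Their differences, as log2 values of Il10-/- minus Il10+/+, were 0.59 for Atp2b4, -0.69 for Lad1, -0.60 for Tnnt2, -0.51 for Rnpep and -0.26 for Mdm4. Among the 47 tested genes of the same interval that were not listed, 0 had an unadjusted p under 0.05 by limma. The share of 9.09% therefore holds for the listed genes and not for the whole interval. The groups did not overlap, meaning that every array of one group lay above every array of the other, for 4 of 55 neighbours, or 7.27%, against 2.92% of all tested genes. In that count 1 neighbour lay higher in Il10-/- (background 1.83%) and 3 lay lower (background 1.09%). As the arrays read bulk RNA of pooled cells, fewer cells of a type and less RNA per cell cannot be told apart in any of these values.

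As a whole, the stretch was centred close to 0. The median difference over the 55 neighbours was 0.0057, against 0.0025 over all tested genes and 0.0045 over 1165 other genes of chromosome 1. Of the neighbours, 28 had a difference above 0 (50.9%, against 50.8% of all genes). The median size of a difference, without its sign, was 0.089 among the neighbours and 0.087 among all genes. Averaged over the neighbours, the log2 value was 8.05 ± 0.04 in Il10-/- and 8.08 ± 0.03 in Il10+/+ (SD, n = 4 each).

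For most neighbours, as for most genes tested, the confidence interval of the difference was narrow. Among the 55 were 18 that did not exceed the reference for dim signal. The 95% confidence interval lay within a 1.5-fold change in either direction for 47 of 55 neighbours, against 85.8% of all genes, and within a 2-fold change for 53 of 55, against 97.9%. The exceptions to the wider bound were Lad1, with an interval of -1.14 to -0.24, and Tnnt2, with one of -1.02 to -0.19. Ctse, with 8 tested genes between it and Il10, differed by 2.84 (interval 2.58 to 3.10), outside every interval among the neighbours.

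**Figure D1:**
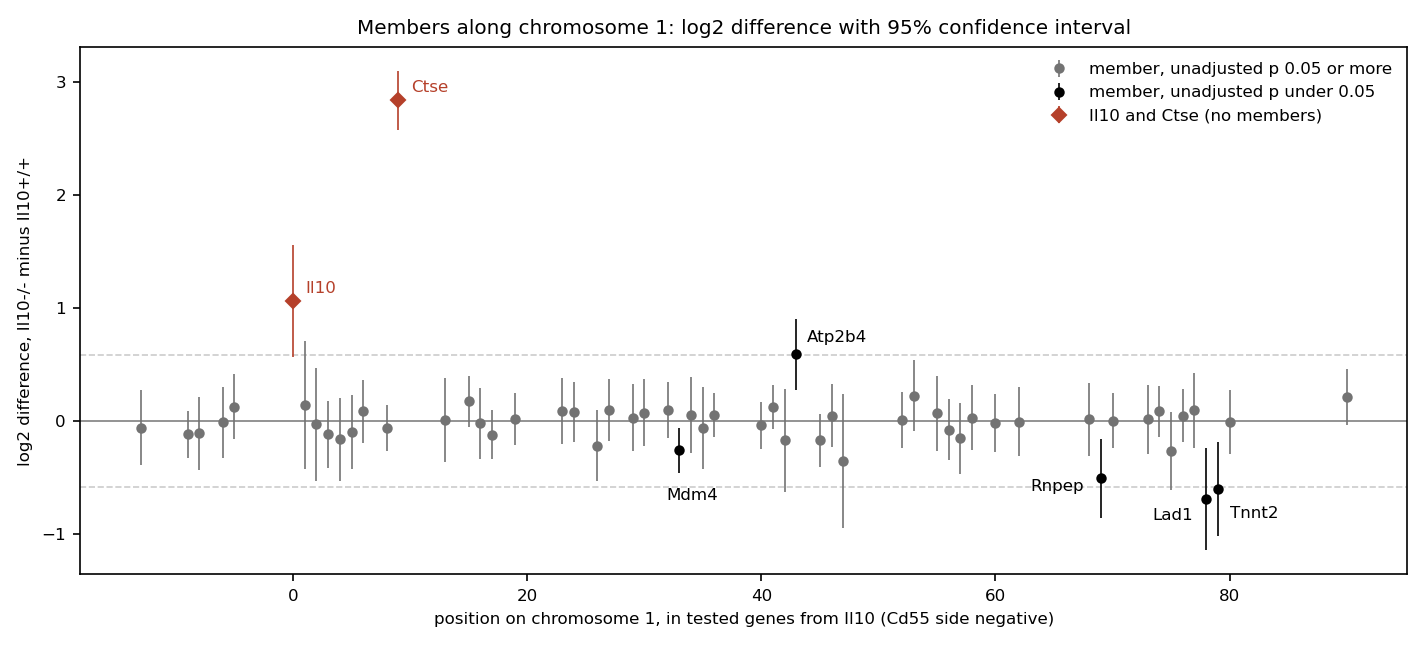
The horizontal axis counts tested genes from Il10 and the vertical axis gives the log2 difference, Il10-/- minus Il10+/+, with its 95% confidence interval; dashed lines mark a 1.5-fold change. The 55 neighbours lie between -0.69 and 0.59, while Ctse stands at 2.84 and Il10 at 1.06.

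Il10 and Ctse mark the reference points of the region. Il10, the disrupted gene, read 9.35, 8.65, 9.42 and 9.25 in Il10-/- replicates 1 to 4 and 8.27, 8.51, 8.14 and 7.50 in Il10+/+ replicates 1 to 4. This is a difference of 1.06 (SE 0.22; limma, adjusted p = 0.405), and since the labels do not name the disrupted part of the gene, the probe set checks no label. Ctse, which encodes the aspartic protease cathepsin E, read 11.49 to 11.75 in Il10-/- and 8.60 to 9.05 in Il10+/+ (limma, adjusted p = 8.33e-07).

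The neighbours closest to Il10 lay at similar values in both groups. Mapkapk2 is the next tested gene after Il10 on the Ctse side and encodes MK2, the p38-activated kinase that stabilises cytokine messages. It read 9.85, 9.28, 10.10 and 10.08 in Il10-/- replicates 1 to 4 and 10.04, 9.79, 9.98 and 8.92 in Il10+/+ replicates 1 to 4. Its lowest values came from Il10-/- replicate 2 and Il10+/+ replicate 4, the arrays that stood apart, and the groups overlapped (difference 0.14, SE 0.26). Without Il10+/+ replicate 4 the difference of Mapkapk2 was -0.11, and without Il10-/- replicate 2 it was 0.33.

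Dyrk3, a kinase that dissolves stress granules, followed, with a mean over the 8 arrays below the reference for dim signal. It read 5.96, 6.67, 6.41 and 6.43 in Il10-/- and 7.10, 6.09, 6.09 and 6.30 in Il10+/+, in the order of replicates. One array, Il10+/+ replicate 1, lay above all others, and the difference of -0.03 (SE 0.23) was 0.21 without it. Eif2d, a factor of non-canonical translation initiation, read 8.65, 8.17, 8.53 and 8.55 in Il10-/- and 8.71, 8.64, 8.32 and 8.71 in Il10+/+. The groups overlapped, with a difference of -0.12 (SE 0.13). It was -0.016 without Il10-/- replicate 2 and -0.21 without Il10+/+ replicate 3.

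On the Cd55 side 4 tested genes that were not on the list lay nearest to Il10. The nearest listed neighbour that was measured was Pigr, the receptor that carries polymeric IgA and IgM across epithelia. It read 6.39, 6.70, 6.76 and 6.74 in Il10-/- and 6.59, 6.23, 6.54 and 6.71 in Il10+/+ (difference 0.13, SE 0.13). That difference was 0.22 without Il10-/- replicate 1 and 0.033 without Il10+/+ replicate 2. Fcamr, an Fc receptor for IgA and IgM, read 5.98, 6.33, 5.82 and 6.12 in Il10-/- and 6.16, 6.09, 5.76 and 6.27 in Il10+/+ (difference -0.01, SE 0.14). Neither gene was above the reference for dim signal in its mean over the 8 arrays. Yod1, a deubiquitinase, read 8.11, 7.72, 7.98 and 8.18 in Il10-/- and 8.35, 8.15, 8.15 and 7.76 in Il10+/+, with its lowest value in each group again in the array that stood apart (difference -0.11, SE 0.15). With 1 array left out in turn, the difference of Yod1 ran from -0.22 (without Il10+/+ replicate 4) to -0.015 (without Il10-/- replicate 2), and it was -0.024 without Il10+/+ replicate 1 and -0.17 without Il10-/- replicate 4. The exact permutation p of these 6 genes ran from 0.40 for Pigr to 0.971 for Fcamr (two-sided, over the 70 ways to assign 4 and 4 arrays).

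**Figure D2:**
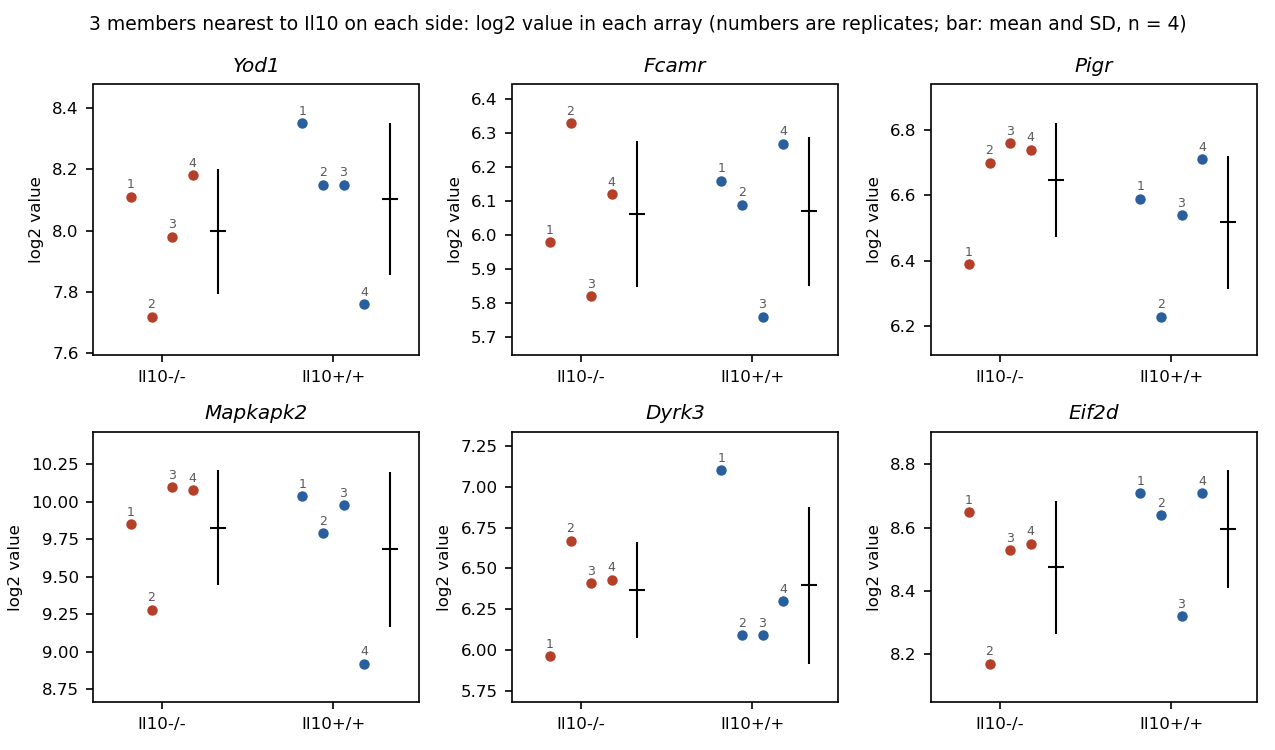
Each panel plots the log2 value of 1 gene in the 8 arrays by group, with the replicate number over each point and the mean and SD (n = 4) as a bar. In all 6 panels the groups overlap, and Mapkapk2 is lowest in Il10-/- replicate 2 (9.28) and Il10+/+ replicate 4 (8.92).

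Farther along the Ctse side were the 5 neighbours at an unadjusted p under 0.05. Between Il10 and the nearest of them, Mdm4, lay 32 tested genes. Between Il10 and Atp2b4 there were 42, between Il10 and Rnpep 68, between Il10 and Lad1 77 and between Il10 and Tnnt2 78.

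Atp2b4, a plasma membrane pump that exports calcium from the cell, had the highest difference. It read 8.86, 9.13, 8.94 and 9.18 in Il10-/- and 8.42, 8.57, 8.07 and 8.68 in Il10+/+. Every Il10-/- array lay above every Il10+/+ array, with Il10+/+ replicate 3 the lowest. The group means of Atp2b4 were 9.03 ± 0.15 and 8.44 ± 0.26 (SD, n = 4 in each group), with a difference of 0.59 (SE 0.14) or 1.51-fold. This did not pass the test (limma, unadjusted p = 0.00165, adjusted p = 0.524), and its exact permutation p was 0.0286, which no assignment of 4 and 4 arrays can go below. After quantile normalization the groups of Atp2b4 overlapped.

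Lad1, which encodes the epithelial anchoring filament protein ladinin, had the lowest difference. It read 7.76, 7.82, 7.82 and 8.0 in Il10-/- and 9.25, 8.33, 8.16 and 8.42 in Il10+/+. The groups did not overlap, and Il10+/+ replicate 1 lay well above the rest. The difference was -0.69 (SE 0.20; limma, unadjusted p = 0.0065, adjusted p = 0.742; exact permutation p = 0.0286). Without Il10+/+ replicate 1 it was -0.45. Of 9 epithelial markers on a fixed list 4 were measured (Dsp, Krt14, Krt18 and Krt19), none above the reference for dim signal. The sum of their log2 values was 24.5 to 25.2 in Il10-/- arrays and 24.3 to 25.3 in Il10+/+ arrays. The 4 differed by -0.17 (Krt19), -0.13 (Dsp), 0.06 (Krt14) and 0.30 (Krt18; limma, unadjusted p = 0.0199), with a median of -0.03, and their part in the difference of Lad1 was not tested.

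Tnnt2 encodes the troponin T of heart muscle and lies next to Lad1 in the order of tested genes. It read 6.86, 7.18, 7.52 and 7.27 in Il10-/- and 7.99, 7.31, 7.81 and 8.12 in Il10+/+. Il10+/+ replicate 2 fell among the Il10-/- arrays, so the groups overlapped. The difference was -0.60 (SE 0.19; limma, unadjusted p = 0.00865, adjusted p = 0.742; exact permutation p = 0.0571). The array highest for Lad1, Il10+/+ replicate 1, was not the highest for Tnnt2. Tnni1, the slow skeletal troponin I on the other side of Lad1, read 6.87, 7.31, 6.93 and 7.12 in Il10-/- and 7.03, 6.59, 6.98 and 7.24 in Il10+/+, a difference of 0.10 (SE 0.15). The difference of Tnni1 thus had the opposite sign to those of Lad1 and Tnnt2.

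Rnpep, which encodes aminopeptidase B, a protease that trims basic residues from peptides, read 8.22, 7.71, 7.89 and 8.38 in Il10-/- and 8.58, 8.81, 8.40 and 8.44 in Il10+/+. The groups did not overlap, but Il10-/- replicate 4 lay just below Il10+/+ replicate 3. The difference was -0.51 (SE 0.16; limma, unadjusted p = 0.00838, adjusted p = 0.742; exact permutation p = 0.0286).

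Mdm4 encodes an inhibitor of p53 that pairs with Mdm2. It read 10.57, 10.60, 10.49 and 10.58 in Il10-/- and 10.92, 10.78, 10.81 and 10.77 in Il10+/+. The groups did not overlap, and the arrays of each group lay close together. The difference was small, -0.26 (SE 0.09; limma, unadjusted p = 0.0153, adjusted p = 0.795; exact permutation p = 0.0286).

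Next by p-value came 3 neighbours with overlapping groups. Camsap2, which protects the minus ends of microtubules, read 9.38, 9.56, 9.21 and 9.46 in Il10-/- and 9.23, 9.16, 9.01 and 9.34 in Il10+/+ (difference 0.22, SE 0.11). Nucks1, an abundant nuclear DNA-binding protein, read 10.65, 10.77, 10.85 and 10.75 in Il10-/- and 10.63, 10.70, 10.58 and 10.40 in Il10+/+ (difference 0.18, SE 0.10). Csrp1, a LIM-domain protein of the actin cytoskeleton, read 8.88, 8.41, 8.85 and 8.86 in Il10-/- and 8.97, 9.27, 9.15 and 8.66 in Il10+/+ (difference -0.27, SE 0.16). In Csrp1 the lowest array of each group was the one that stood apart, and its difference was -0.15 without Il10-/- replicate 2 and -0.38 without Il10+/+ replicate 4. The difference of Nucks1 was 0.12 without Il10+/+ replicate 4. Their exact permutation p-values were 0.0857, 0.0571 and 0.20, and all 3 had a limma adjusted p of 0.999.

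**Figure D3:**
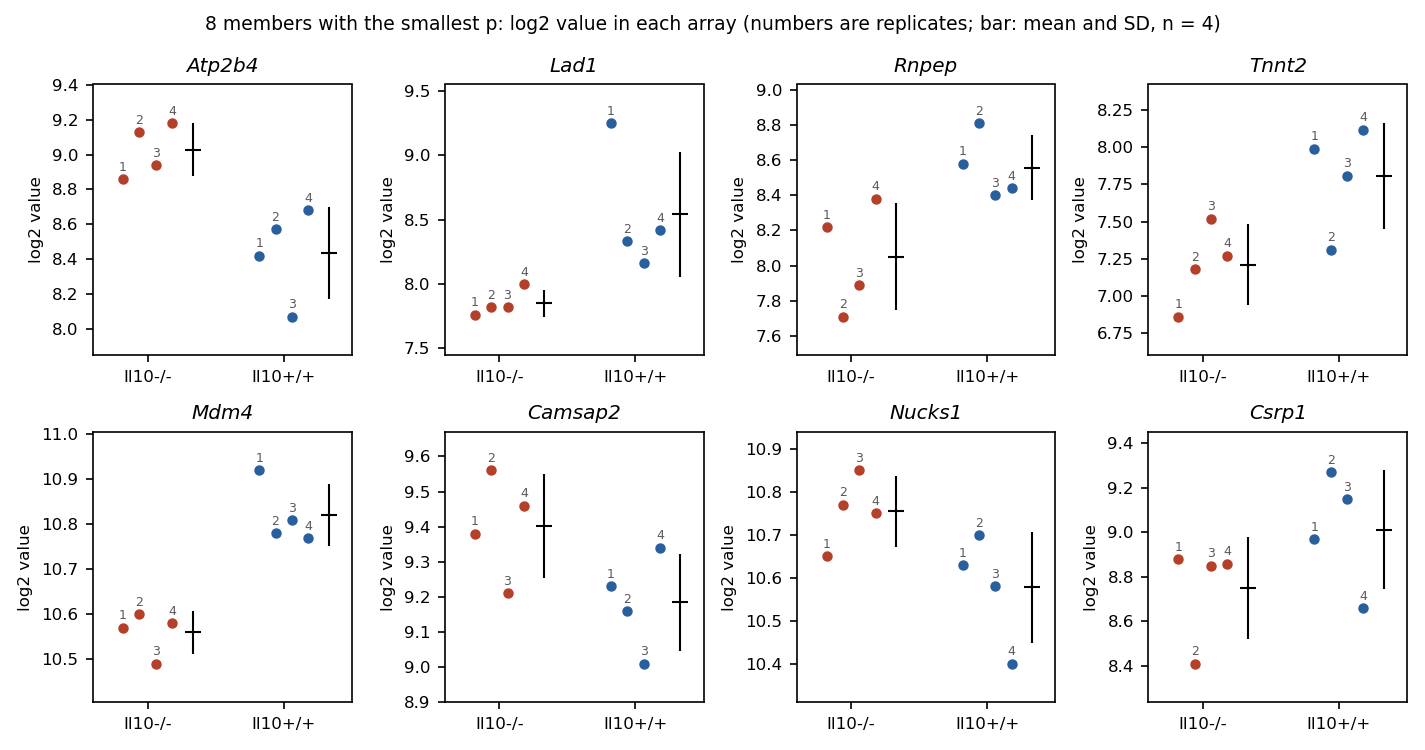
Each panel plots the log2 value of 1 gene in the 8 arrays by group, with the replicate number over each point and the mean and SD (n = 4) as a bar; the panels have separate scales. In Atp2b4, Lad1, Rnpep and Mdm4 the groups do not overlap, and in Tnnt2 Il10+/+ replicate 2 (7.31) lies within the range of the Il10-/- arrays.

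The promoters of Atp2b4, Lad1 and Rnpep are shown because these were the neighbours of smallest p whose groups did not overlap. RefSeq sequence of build GRCm38.p6, strain C57BL/6J, is printed 5′ to 3′ for the 250 bases before the start listed for each gene. CG dinucleotides, the sites of DNA methylation, are in capitals. Whether these cells used the listed starts was not tested. The windows are chr1:133753748-133753997 on the minus strand for Atp2b4, chr1:135818348-135818597 on the plus strand for Lad1 and chr1:135284085-135284334 on the minus strand for Rnpep.
Atp2b4: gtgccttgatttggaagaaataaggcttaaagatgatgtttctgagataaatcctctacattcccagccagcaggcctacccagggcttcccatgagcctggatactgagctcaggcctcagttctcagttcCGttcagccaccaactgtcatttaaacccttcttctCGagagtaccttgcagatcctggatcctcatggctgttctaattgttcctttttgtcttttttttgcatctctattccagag
Lad1: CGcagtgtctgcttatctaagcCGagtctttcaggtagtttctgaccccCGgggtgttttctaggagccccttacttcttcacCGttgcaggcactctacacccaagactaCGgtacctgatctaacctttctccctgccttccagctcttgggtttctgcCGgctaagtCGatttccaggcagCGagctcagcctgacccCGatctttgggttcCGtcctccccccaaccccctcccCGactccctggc
Rnpep: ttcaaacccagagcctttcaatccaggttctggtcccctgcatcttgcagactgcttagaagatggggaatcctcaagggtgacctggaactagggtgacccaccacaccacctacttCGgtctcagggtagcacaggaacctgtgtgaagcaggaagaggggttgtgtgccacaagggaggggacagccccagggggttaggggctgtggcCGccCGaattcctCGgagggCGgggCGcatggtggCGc

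The 3 windows differ in composition. Atp2b4 has 2 CG dinucleotides, Rnpep 7 and Lad1 11, where the median over 32851 such RefSeq windows was 6. On either strand, GGGCGG, the GC box, occurs 2 times in the Rnpep window and 0 times in the others, and 32.7% of all windows hold it. TATAAA, held by 12.4% of windows, CCAAT, held by 33.8%, and the ETS-type letters CCGGAAG, held by 6.91%, occur in none of the 3. The arrays read transcripts and not these sequences, and any sequence difference of the Il10-/- mice here was not tested.

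By position, the median difference stayed close to 0 along the chromosome. The 5 neighbours on the Cd55 side, from Cd55 to Pigr, had a median difference of -0.06. On the Ctse side, successive blocks of 10 neighbours had medians of -0.02 (Mapkapk2 to Slc45a3), 0.05 (Elk4 to Mdm4), 0.0072 (Pik3c2b to Btg2), 0.0032 (Ppfia4 to Rnpep) and 0.01 (Timm17a to Camsap2). The 7 neighbours between Il10 and Ctse had differences from -0.16 to 0.14, so that the large difference of Ctse had no counterpart among them. Il10 itself differed by 1.06. Across the 50 neighbours of the Ctse side, Spearman's rho between the order from Il10 and the size of the difference was 0.018, a description over genes that share the same 8 arrays. Consecutive measured neighbours had differences of the same sign in 23 of 54 pairs (42.6%), and other tested genes lay between some of them. Among all tested genes of chromosome 1, directly adjacent pairs had the same sign in 50.6%. As these percentages count unlike pairs, no conclusion is drawn from their difference.

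Genes of the same interval that were not on the list had a smaller median size of difference, 0.056 without its sign against 0.089 among the listed neighbours. Of these 47 genes, 0 had an unadjusted p under 0.05 by limma and 0 an adjusted p under 0.05, and the median difference was 0.013, in a range from -0.30 to 0.26. The smallest p belonged to the microRNA gene Mir135b (difference 0.24; limma, unadjusted p = 0.0572), the only one of the 47 whose groups did not overlap. Next was the cytokine gene Il24, with 2 tested genes between it and Il10 (difference 0.26; limma, unadjusted p = 0.0684). The group means of Mir135b and Il24 lay below the reference for dim signal. Among the other 1165 tested genes of chromosome 1, with Il10 and Ctse left out, 4.64% had an unadjusted p under 0.05. In that set 1 gene passed the adjusted threshold, Efcab2, which is separated from Il10 by 408 tested genes (difference 1.35, SE 0.16; limma, adjusted p = 0.0201).

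By role, the immune receptors and adaptors had 1 of 6 differences above 0, a median of -0.08, and 0 at an unadjusted p under 0.05. Lax1, an adaptor that restrains antigen receptor signalling, differed by -0.17 (SE 0.21), and Rassf5, the Rap1 effector RAPL needed for lymphocyte adhesion, by -0.16 (SE 0.17). Ikbke, a kinase of the interferon and NF-kappaB pathways, differed by -0.10 (SE 0.15), and Cd55, which protects cells from complement, by -0.06 (SE 0.15).

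Among the 8 kinases and signalling genes 5 differences were above 0, with a median of 0.04 and 0 at an unadjusted p under 0.05. Dstyk, a dual-specificity kinase, differed by -0.22 (SE 0.14), and by -0.32 through its second probe set. Pfkfb2, which encodes a regulatory enzyme of glycolysis, differed by -0.12. Srgap2, a regulator of Rac, differed by 0.09, the kinase gene Nuak2 by 0.08, the lipid kinase gene Pik3c2b by 0.06 and Cdk18 by 0.02.

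Genes of transcription, chromatin and p53 numbered 9, of which 4 had differences above 0, and their median was -0.02. Besides Mdm4, the p53-induced genes were Btg2, an antiproliferative factor, at -0.35 (SE 0.27, interval -0.95 to 0.24), and Phlda3, a repressor of Akt, at 0.05 (SE 0.11). The chromatin genes Rbbp5, a subunit of histone methyltransferase complexes, and Kdm5b, a histone demethylase, differed by 0.10 and -0.02. The transcription factor genes Elk4, Sox13 and Elf3 differed by -0.12, -0.04 and 0.02.

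Of 9 genes of RNA, translation and protein handling, 4 had differences above 0, with a median of -0.06. Besides Rnpep, Yod1 and Eif2d, the extremes were Klhl12, a Cul3 ubiquitin ligase adaptor, at -0.15 and Snrpe, a core protein of the spliceosome, at 0.13. Ppp1r15b, which keeps the translation factor eIF2 active by dephosphorylation, differed by -0.06. Rabif, the nuclear import receptor gene Ipo9 and the mitochondrial import gene Timm17a differed by 0.03, 0.02 and 0.0057.

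Membrane transport and organelle genes had 4 of 6 differences above 0 and a median of 0.04. Besides Atp2b4 these were Tmem183a at 0.23 (SE 0.14), Cyb5r1 at 0.07, the magnesium transporter gene Slc41a1 at 0.01, Slc45a3 at -0.02 and the adiponectin receptor gene Adipor1 at -0.07. Cytoskeletal and contractile genes had 4 of 7 differences above 0 and a median of 0.05. Besides Tnnt2, Tnni1, Csrp1 and Camsap2, the microtubule-binding protein gene Nav1 differed by 0.09, Plekha6 by 0.05 and Ppp1r12b, a subunit of myosin phosphatase, by -0.0039.

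The 10 genes used mainly in other tissues had 6 differences above 0 and a median of 0.02. Apart from Lad1, they ran from -0.17 for Prelp, a proteoglycan of connective tissue, to 0.10 for the neuronal gene Lrrn2. Between these lay the neuronal adhesion genes Nfasc (0.08) and Cntn2 (0.03), Klhdc8a (0.09), the collagen-binding proteoglycan gene Fmod (0.05), Ppfia4 (0.01), the desmosome gene Pkp1 (-0.0059) and the vasopressin receptor gene Avpr1b (-0.06). The second probe sets of Prelp and Fmod gave 0.03 and -0.04, each with the opposite sign to the first. Of the 55 neighbours, 18 did not exceed the reference for dim signal, among them 7 of these 10, and all 5 neighbours at an unadjusted p under 0.05 exceeded it.

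**Figure D4:**
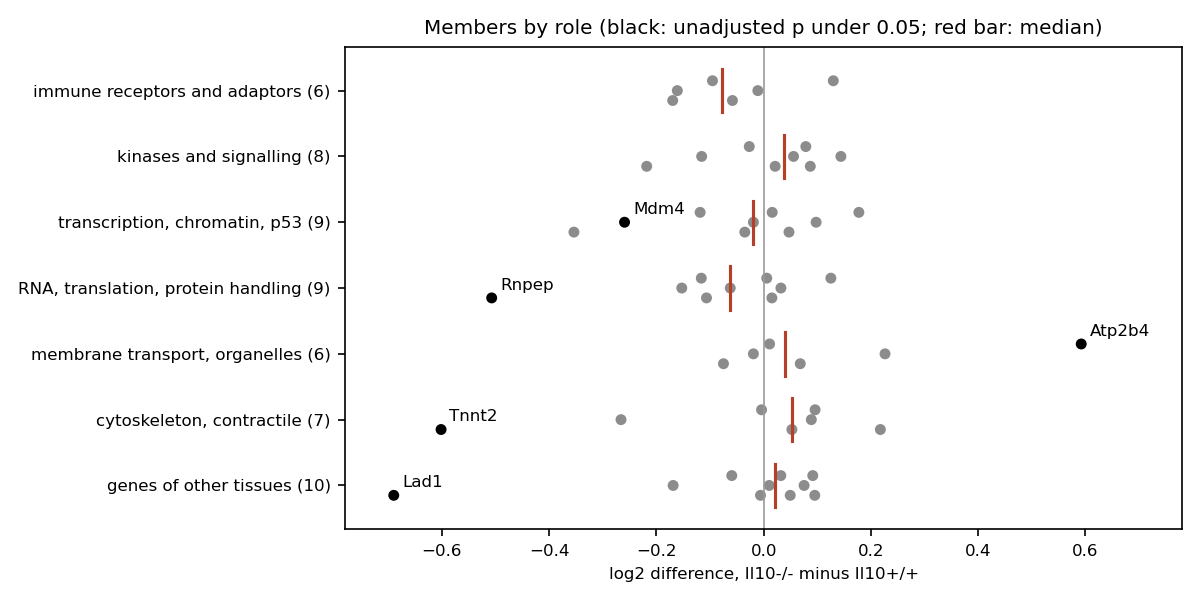
Each point is 1 of the 55 measured neighbours, placed by its log2 difference, Il10-/- minus Il10+/+, in the row of its role, with the number of genes in brackets and the median as a red bar. The medians of the 7 roles lie between -0.08 and 0.05, and the 5 genes in black are those at an unadjusted p under 0.05.

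The arrays that stood apart often held the most distant value of their group. Il10-/- replicate 2 was the array farthest from its group mean for 24 of 55 neighbours, and Il10+/+ replicate 4 for 20, against 9 to 14 in the other arrays. The same count over all tested genes was not made. Il10-/- replicate 2 and Il10+/+ replicate 4 stood apart on the first principal component of all tested genes, so this is no trait of the neighbours alone. The median within-group SD was 0.20 over the neighbours and 0.18 over all genes. Without both of these arrays 0 neighbours passed the adjusted threshold and 6 had an unadjusted p under 0.05 by limma, against 5.48% of all genes.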

How the data were processed

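The authors deposited log2 expression values per probe set for 8 arrays, made in Partek Genomics Suite by RMA background correction, correction for GC content and mean probe summarization, per the labels and design text; Affymetrix Expression Console is also named, per the submitters' processing notes. Program versions and the array's genome build are not stated there, so positions are given as gene order in the RefSeq table of GRCm38.p6.

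Of 16378 probe sets, 7358 were named with 1 gene, 456 with several and 8564 with none in the platform annotation; 7310 of the first were matched to RefSeq by Entrez identifier. For genes with several probe sets (284) the one with the highest mean was used, leaving 6986 genes without a filter on signal. Groups were compared with limma 3.58.1 (lmFit, eBayes) in R 4.3.3, adjusted over all 6986 genes by Benjamini-Hochberg, after a check of the code on simulated data. Exact two-sided permutation tests used 70 assignments. The number of arrays limits the precision. Marker lists of B cells, myeloid cells, and stroma and endothelium had 0 genes at an unadjusted p under 0.05 by limma among 5, 5 and 5 measured (median differences 0.14, -0.04 and -0.10).

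Values were given array by array for neighbours at unadjusted p under 0.05 (filled to 8 by p), and for the 3 nearest to Il10 on each side. Tnni1 and Efcab2 were added after their values were seen. Promoters matched by symbol for 51 of 55 neighbours. The neighbours, lists and tests were chosen with earlier results of these data known.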

Additional observations from a re-analysis of the deposited data

Results flagged for a closer look

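Within groups of 4 arrays, 3 of 32 groups checked held an array far from the others by Dixon's criterion, where chance gives about 1 in 20. Csrp1 read 8.41 in Il10-/- replicate 2, against 8.85 to 8.88 in the other Il10-/- arrays. Pigr read 6.39 in Il10-/- replicate 1, against 6.70 to 6.76 in the others. Ctse read 11.49 in Il10-/- replicate 2, against 11.72 to 11.75 in the others, and remained above every Il10+/+ array.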

How the results depend on the processing

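Under 17 alternatives (other normalizations, variance models and array weights, each array left out, both arrays that stood apart left out, averaging of probe sets, a filter on dim genes, and every probe set tested) 0 neighbours had an adjusted p under 0.05 by limma (smallest value 0.261), and Atp2b4, Lad1, Rnpep, Tnnt2 and Mdm4 kept an unadjusted p under 0.05 in each, within a total of 5 to 7 neighbours. At that unadjusted p the share of all genes ran from 3.24% (every probe set tested) to 6.43% (array weights). It was 6.14% without Il10+/+ replicate 4, where 7 neighbours were counted. The filter on dim genes left 37 of the 55 neighbours. The median difference stayed between -0.035 and 0.030, and between -0.029 and 0.026 with 1 array left out. Neighbours whose groups did not overlap numbered 4 to 7 with 1 array left out, with 7 without Il10-/- replicate 2 (6.05% of all genes) and 7 without Il10+/+ replicate 2 (6.68%), and 9 without both arrays that stood apart (10.7%); fewer arrays overlap less often by construction.

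Of 235 recomputed differences of the 14 genes given array by array, 9 reversed, and none was of the 5 above. Not all of the 235 could reverse. The trend and robust variance model and the replicate block left each difference unchanged by construction. So did averaging of probe sets (1 per gene here), the filter on dim genes and testing every probe set. Fcamr gave 0.00085 with array weights, 0.017 and 0.070 without Il10-/- replicates 1 and 3, and 0.019 and 0.056 without Il10+/+ replicates 1 and 4 (range with 1 array left out -0.11 to 0.070). Dyrk3 gave 0.11 without Il10-/- replicate 1 and 0.21 without Il10+/+ replicate 1 (range -0.13 to 0.21), Mapkapk2 -0.11 without Il10+/+ replicate 4 (range -0.11 to 0.33), and Eif2d 0.023 without both arrays that stood apart. The cause was not tested. A check of the replicate numbers showed no pairing of the arrays. Deviations of same-numbered arrays from their group means correlated at -0.321 to 0.0528 across genes. Of 8 arrays, 0 correlated best with their own number. The highest correlation, 0.456, was between Il10-/- replicate 2 and Il10+/+ replicate 4, the arrays that stood apart. With 4 arrays per group, this check could miss a weak pairing. With the replicate number as a block, 0 neighbours passed the adjusted threshold and the median was 0.0057. In that setting 5 had an unadjusted p under 0.05 by limma, against 4.12% of all genes.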
